A study of Sus scrofa with 6 samples.

Results

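Histone variants and linker histones were examined in porcine 2-cell embryos by taking every row of the deposited transcript table whose gene name equalled H1FOO, H1F0, H1FX, H2AFZ, H2AFV, H2AFX, H2AFY, H3F3A, H3F3B or CENPA. Of these 10 genes, 7 were found by name among the 17678 genes of the table, and all 7 passed the filter on low values. H2AFV was found by its Ensembl identifier alone (ENSSSCG00000016738), because the table lists that row without a name and a gene name table gives it the present symbol H2AZ2. It is described beside the 7 and is not counted among them. H2AFX and H3F3B were not found among the rows used here.

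The study asked what loss of the corepressor scaffold SIN3A does to the transcripts of early embryos. Messenger RNA selected by its poly(A) tail was sequenced from 6 libraries of 20 pooled embryos, 3 in the negative control group (NC) and 3 in the knockdown group (KD), all collected 32 h after parthenogenetic activation. Oocytes came from slaughterhouse ovaries of crossbred pigs, were matured in culture, stripped of cumulus cells and injected with siRNA at metaphase II. NC oocytes received a nonspecific siRNA and KD oocytes received siRNAs against SIN3A, and both were then activated by electric pulses followed by cycloheximide and cytochalasin B, so the embryos carry no paternal genome. The values are Salmon read estimates per gene that the authors had normalized between libraries, called transcript level below. The NC libraries held an estimated 7800000 to 13000000 reads and the KD libraries 10200000 to 15700000. Since each library pools whole embryos, fewer embryos or cells holding a transcript and less of it per cell cannot be told apart.

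Linker histones bind the DNA that enters and leaves the nucleosome and help to compact chromatin, and oocytes carry a linker histone of their own, encoded by H1FOO, which the somatic forms replace as the embryo develops. Histone variants take the place of the canonical core histones at particular sites and can be put into chromatin outside DNA replication. Most of their mRNAs carry a poly(A) tail, whereas mRNAs of the canonical histones mostly end in a stem-loop.

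SIN3A itself was examined first, as the target of the siRNAs. Replicates 1 to 3 of NC had a SIN3A transcript level of 37361, 33964 and 32404, and those of KD had 3271, 1079 and 4173. Every KD library lay below every NC library, with KD replicate 2 the lowest, and the KD mean was 8.22% of the NC mean. The log2 fold change, here and below on the log2(value + 1) scale and as KD against NC, was -3.81 (95% confidence interval -4.46 to -3.17), and limma gave an adjusted p of 8.45e-06. The fall was of the same size but no longer passed the threshold with limma's robust option (adjusted p = 0.469) or without its variance trend (adjusted p = 0.423), and over all alternatives the adjusted p ran from 3.19e-11 to 0.469. Without KD replicate 2 the log2 fold change was -3.22, and with other single libraries left out it lay between -4.20 and -3.76.

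Against this fall of SIN3A, the histone variant transcripts showed no difference between the groups beyond the spread of the libraries. None of the 7 genes found by name was called by limma at an adjusted p below 0.05, where 19 of 11986 genes tested were called (0.159%), 7 higher and 12 lower in KD. Groups overlapped for each of the 7, where 1173 of the 11986 genes (9.79%) had groups that did not overlap. At an unadjusted p below 0.05 there were 0 of the 7 and 553 of all genes tested, and the lowest unadjusted p of a listed gene was 0.336. The log2 fold change was above 0 for 1 gene and below 0 for 6, with a median of -0.06 and a range of -0.11 to 0.06, beside a median of 0.003 over all genes tested. The adjusted p was 0.997 for each of the 7. A test that misses the threshold does not show equal levels, but the 95% confidence intervals of all 7 lay within a 2-fold change.

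**Figure D1:**
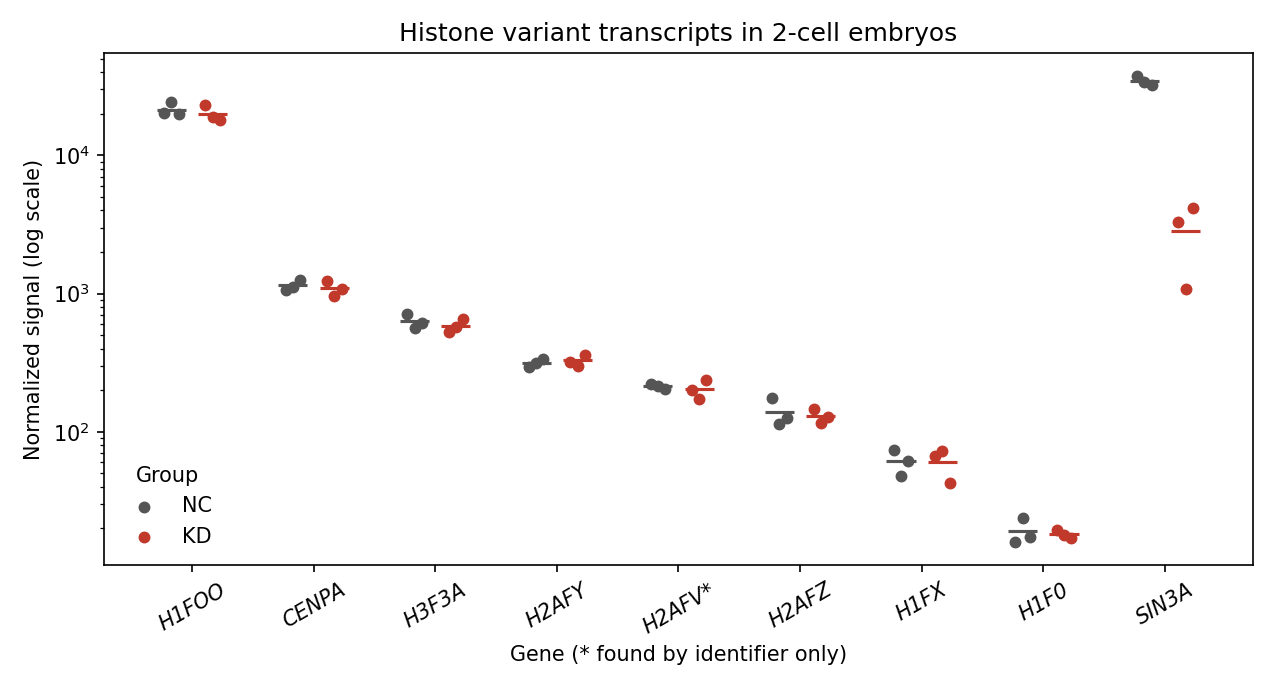
Transcript level (normalized signal, log axis) of 7 histone variant and linker histone genes, of H2AFV found by identifier, and of SIN3A. Points are single libraries of NC (grey) and KD (red) embryos and lines are group means (n = 3). The groups overlap for each histone gene, from H1FOO, with means of 21467 and 20006, down to H1F0, with 19.0 and 18.1, and are apart for SIN3A.

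H1FOO, the linker histone of the oocyte (ENSSSCG00000011591, chromosome 13 from 68921491 to 68943061 on the plus strand of Sscrofa11.1, 5 exons in the longest RefSeq mRNA), had the highest level of the group. Its transcript level was 20174, 24453 and 19774 in NC and 23026, 18991 and 18001 in KD replicates 1 to 3. A single library in each group, NC replicate 2 and KD replicate 1, stood above the rest, and the other 4 libraries lay between 18001 and 20174. Means were 21467 ± 2594 in NC and 20006 ± 2662 in KD (SD, n = 3), and the log2 fold change was -0.10 (standard error 0.10, 95% confidence interval -0.32 to 0.12). An exact two-sided permutation test gave p = 0.5, where the smallest p that 3 libraries against 3 allow is 0.1. The bounds of the interval correspond to 0.80-fold and 1.08-fold of the NC level, and the standard error was the smallest among the listed genes. Without NC replicate 2 the log2 fold change was -0.01, without KD replicate 3 it was -0.03, and without KD replicate 1 it was -0.21.

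The somatic linker histones were near the other end of the scale by values not divided by length, as no mRNA length was at hand for either. H1F0, a linker histone typical of cells that have stopped dividing (ENSSSCG00000039348), had a transcript level of 15.9, 23.9 and 17.2 in NC and of 19.6, 17.8 and 17.1 in KD replicates 1 to 3. These values rest on an estimated 15 to 25 reads per library, and counting alone gives an error of 25.6% at the lowest of them. The KD values lay inside the range of the NC values, and the log2 fold change of -0.04 had a 95% confidence interval of -0.88 to 0.79, the widest among the listed genes, and became 0.13 without NC replicate 2. H1FX, a replication-independent linker histone (ENSSSCG00000011613), had a transcript level of 74.0, 47.5 and 61.8 in NC and of 66.6, 72.9 and 42.9 in KD replicates 1 to 3. High and low libraries occurred in both groups, the means were 61.1 ± 13.2 and 60.8 ± 15.8 (SD, n = 3), and the log2 fold change was -0.02 (95% confidence interval -0.59 to 0.55), or 0.13 without NC replicate 1 and 0.21 without KD replicate 3.

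H2AFZ encodes the H2A variant found at promoters and regulatory elements, and it is also the gene to which the study's qPCR was normalized (ENSSSCG00000009178, chromosome 8 from 120563752 to 120566023 on the plus strand, 5 exons). Its transcript level was 175, 113 and 126 in NC and 147, 116 and 128 in KD replicates 1 to 3. The highest and the lowest library were both NC, so the KD values fell inside the NC range, and the spread within NC (138 ± 33.0, SD, n = 3) was wider than that within KD (130 ± 15.6). The log2 fold change was -0.06 (standard error 0.20, 95% confidence interval -0.48 to 0.35, exact permutation p = 0.9), and its sign rested on single libraries, being 0.12 without NC replicate 1 and 0.02 without KD replicate 2. The row for H2AFV, a near-identical H2A variant, stood at 222, 215 and 204 in NC and at 202, 172 and 235 in KD replicates 1 to 3. The KD libraries held both the lowest and the highest value, and the log2 fold change was -0.09 (95% confidence interval -0.42 to 0.25), or 0.03 without KD replicate 2.

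The ratio of H2AFZ to H2AFV within a library asks whether the balance of the paralogs moved. On the log2 scale it was -0.34, -0.93 and -0.69 in NC and -0.46, -0.56 and -0.87 in KD replicates 1 to 3. The KD ratios again lay inside the NC range, and the means differed by 0.02 (exact permutation p = 0.9), or by -0.115 without NC replicate 2, -0.064 without KD replicate 1 and -0.012 without KD replicate 2. Reads of such similar transcripts may be divided imperfectly between them.

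H2AFY encodes macroH2A, an H2A variant with a large globular domain that is associated with silent chromatin (ENSSSCG00000014307, chromosome 2 from 137535128 to 137623886 on the minus strand). Its transcript level was 294, 316 and 334 in NC and 321, 301 and 362 in KD replicates 1 to 3. It was the only listed gene with a positive log2 fold change, 0.06 (95% confidence interval -0.23 to 0.34), which turned to -0.02 without KD replicate 3, its highest library.

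H3F3A encodes the replication-independent H3 variant (ENSSSCG00000023971, chromosome 10 from 13939938 to 13947976 on the plus strand). Its transcript level was 710, 566 and 617 in NC and 524, 570 and 654 in KD replicates 1 to 3. NC replicate 1 was the highest and KD replicate 1 the lowest library, with the other 4 intermixed, and the log2 fold change of -0.11 (standard error 0.12, 95% confidence interval -0.38 to 0.15) was the lowest of the listed genes, and became -0.03 without NC replicate 1 and -0.04 without KD replicate 1. As H3F3B was not found, the ratio of these paralogs was not computed. CENPA, the H3 variant that marks centromeres (ENSSSCG00000038543, chromosome 3 from 112263912 to 112272638 on the minus strand), had a transcript level of 1061, 1115 and 1256 in NC and of 1231, 955 and 1087 in KD replicates 1 to 3. NC replicate 3 and KD replicate 1 were close to each other at the top, and the log2 fold change was -0.07 (95% confidence interval -0.31 to 0.17), or 0.02 without KD replicate 2.

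Levels of different genes were compared per kilobase of the longest RefSeq mRNA, which was at hand for 5 of the 7 genes. H1FOO had 15389 ± 1859 per kilobase in NC and 14341 ± 1908 in KD (SD, n = 3), and its mean over the 6 libraries ranked 8 among 10230 genes with such a length, 243 times the median gene. H3F3A followed with 1317 ± 152 in NC, a value that rests on a short RefSeq mRNA of 479 bases. CENPA had 526 ± 46.3 and H2AFZ 148 ± 35.4 per kilobase in NC. H2AFY was the lowest with 40.6 ± 2.55 per kilobase in NC, below the median gene. That place rests on the longest of its 10 RefSeq mRNAs, of 7745 bases, and a shorter one would give a higher value. With these lengths, neighbours in the order differed by more than the spread between libraries. The order was the same in KD, with 1216 ± 138 for H3F3A, 502 ± 63.5 for CENPA, 140 ± 16.8 for H2AFZ and 42.3 ± 4.01 for H2AFY. Both groups were divided by the same lengths, so neither the spread nor the KD order tests them. Other mRNA lengths could change the order below H1FOO, which was not tested.

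Because a reference gene should vary little between samples, the spread of H2AFZ was set beside that of commonly used reference genes. Its log2 level had an SD of 0.237 over the 6 libraries, which ranked 12 of 16 genes from the steadiest. H2AFZ had an estimated 77 to 168 reads per library, and counting alone gives an error of 11.4% at the lowest. That error was 2.8% for YWHAG, 1.15% for TOP2B and 3.16% for ACTB, so the rank also reflects read depth. The part of the spread due to counting was not computed. NC replicate 1, at 175, stood above the other libraries, at 113 to 147, and the SD without it was not computed. YWHAG was the steadiest with an SD of 0.08, and ACTB had 0.123. GAPDH, chosen after its values were seen because its mean transcript level of 134 equalled that of H2AFZ, had an SD of 0.331. GUSB had the largest, 0.73, at a mean level of 7.87 that was too low to be tested. Among the 703 tested genes within 0.25 log2 units of the mean of H2AFZ the median SD was 0.225, with 55.6% of them steadier than H2AFZ. Of the 18 reference genes listed beside H2AFZ, 15 were found and 14 tested. By limma 0 were called and 0 had an unadjusted p below 0.05, beside 19 and 553 of the 11986 genes tested. The median log2 fold change was 0.016, which was below 0 in 5 of the 6 fits that left out a library (lowest -0.042) and 0.005 without NC replicate 3. ACTB had the largest positive log2 fold change, 0.11, which ran from 0.05 to 0.18 when single libraries were left out, lowest without NC replicate 1 and highest without NC replicate 2. TFRC had the largest negative one, -0.27, or -0.11 without KD replicate 2, -0.15 without NC replicate 2 and -0.47 without KD replicate 3. TOP2B, with the highest level, had -0.05, or 0.04 without NC replicate 1.

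Dividing by H2AFZ within each library left the direction of SIN3A and of the qPCR target genes as it was and widened the spread among NC libraries for each of the 4. Among KD libraries the SD became larger for HDAC1 and HDAC2 but smaller for CCNB1, from 0.66 to 0.53, and for SIN3A, from 1.04 to 0.93. The log2 ratio of CCNB1, the mitotic cyclin, to H2AFZ was 5.66, 6.31 and 5.93 in NC and 3.84, 3.06 and 4.07 in KD replicates 1 to 3. All KD ratios lay below all NC ratios, and the KD level relative to H2AFZ was 20.2% of NC, beside 19.3% without a reference gene, both from means of log2 values. For SIN3A the same values were 7.42% and 7.11%, the latter below the 8.22% given above because that compares means on the linear scale. Over the 4 genes compared, the exact permutation p of 0.1 for CCNB1 and for SIN3A was the smallest that 3 against 3 allow, and became 0.2 after Benjamini-Hochberg adjustment.

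The deacetylase genes HDAC1 and HDAC2 were compared in the same way. The log2 ratio of HDAC1 to H2AFZ was 2.26, 3.02 and 2.95 in NC and 2.82, 3.20 and 2.90 in KD replicates 1 to 3. NC replicate 1, the library with the highest H2AFZ, stood apart at the bottom, and the SD of NC was 0.42 against 0.11 for HDAC1 without a reference gene. The KD mean was higher by 0.23 (exact permutation p = 0.6, adjusted p = 0.6), and this difference became -0.01 without NC replicate 1. The log2 ratio of HDAC2 to H2AFZ had a KD mean lower than NC, with a difference of -0.20 (exact permutation p = 0.5, adjusted p = 0.6), and an SD in NC of 0.26 against 0.09 without a reference gene. The difference was -0.022 without KD replicate 1, -0.074 without NC replicate 2, -0.329 without NC replicate 1 and -0.316 without KD replicate 3.

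**Figure D2:**
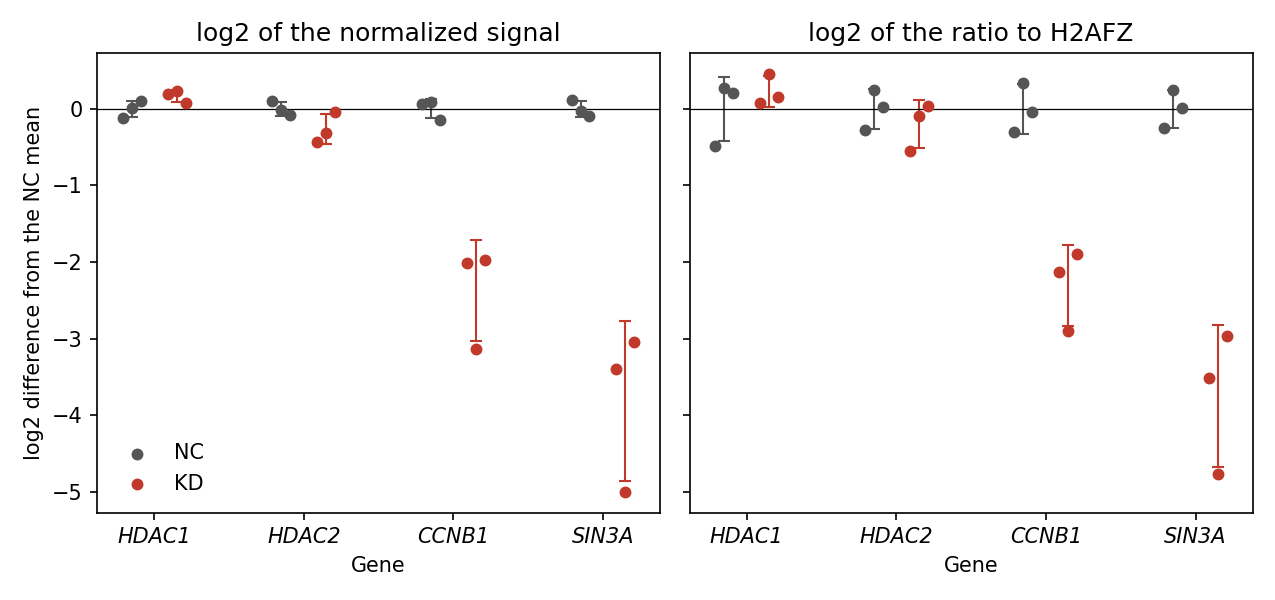
Log2 difference of each library from the NC mean for HDAC1, HDAC2, CCNB1 and SIN3A, from the normalized signal (left) and from its ratio to H2AFZ (right). Points are single libraries of NC (grey) and KD (red) embryos, and bars are mean ± SD (n = 3). The NC points spread further apart on the right, with an SD of 0.42 against 0.11 for HDAC1, while CCNB1 and SIN3A keep a gap between the groups.

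Other histone genes were looked at as a list of 19 rows, of which 12 could be tested. None was called by limma, beside 0.159% of all genes tested. An unadjusted p below 0.05 was reached by 2, beside 553 of the 11986 genes tested. Groups did not overlap for 2, beside 9.79% of all genes tested. The median log2 fold change was 0.141, beside 0.003 over all genes tested. This median was -0.168 without the filter on low values and -0.241 without KD replicate 2. It was below 0 in 5 of the 6 fits that left out a library. Most of these genes had low levels, in libraries that select poly(A) tails. Histone genes in clusters also share sequence, so their read estimates are uncertain. HIST1H2BA, a testis-type H2B gene also present in oocytes, had the highest value, not divided by length, with 449 ± 57.9 in NC and 405 ± 93.9 in KD (SD, n = 3). The largest positive value was that of HIST1H1D, a replication-dependent linker histone, at 124, 141 and 145 in NC and 176, 178 and 172 in KD replicates 1 to 3. The groups did not overlap, and the log2 fold change of 0.37 (95% confidence interval 0.02 to 0.71) had an unadjusted p of 0.0375 and an adjusted p of 0.997 from limma. HIST1H1T, the testis-type linker histone, was at 48.6, 53.5 and 45.3 in NC and 25.5, 42.0 and 24.7 in KD replicates 1 to 3, again without overlap, with a log2 fold change of -0.70 (unadjusted p = 0.0335, adjusted p = 0.997 from limma). It lies outside the rule for named genes and was chosen after its values were seen. The largest negative value was that of HIST1H2BD, -0.88, at only 16.2 ± 8.20 in NC and 8.78 ± 6.30 in KD (SD, n = 3). This became -1.37 without KD replicate 2, -0.61 without KD replicate 1 and -0.48 with a pseudocount of 10.

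**Figure D3:**
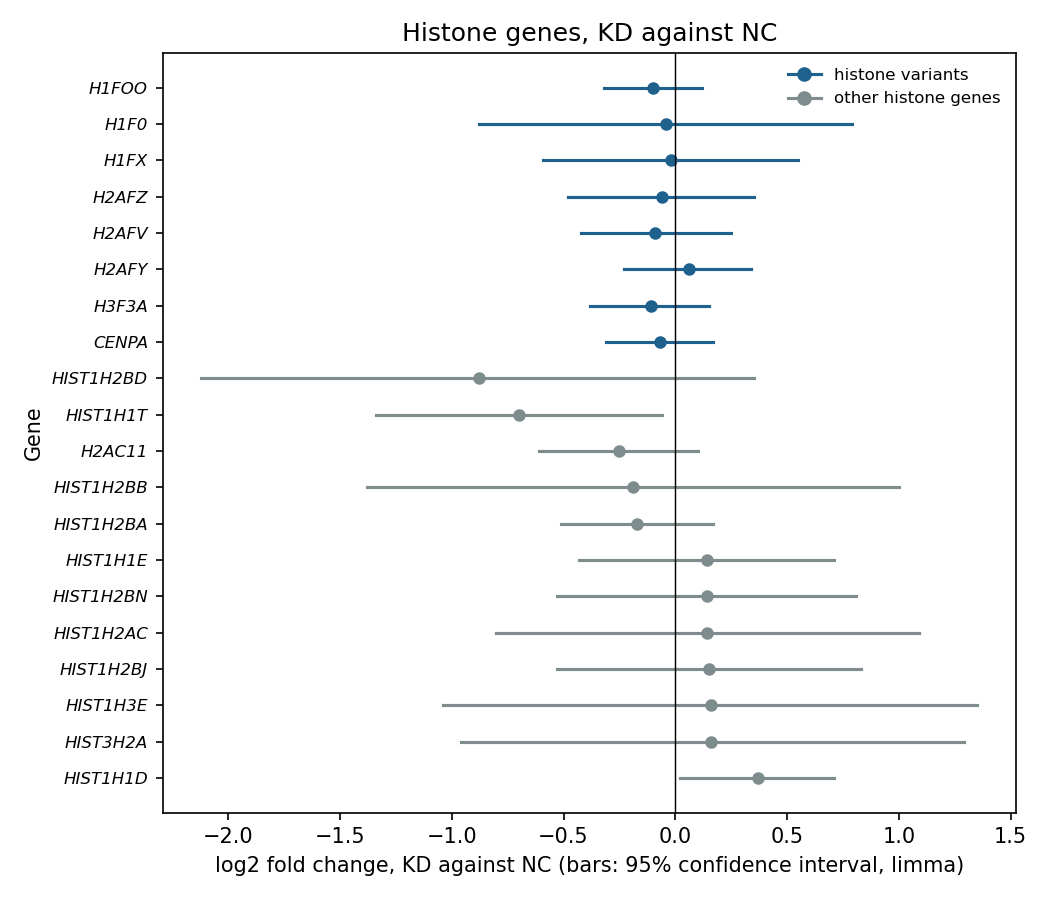
Log2 fold change, KD against NC, with 95% confidence intervals from limma, of the listed histone variant genes (blue, with H2AFV found by identifier) and of 12 other histone genes (grey). The blue points lie between -0.11 and 0.06 and all their intervals cross 0, while the grey points range from -0.88 to 0.37 with mostly wider intervals.

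Histone chaperones bring histones to chromatin, and exchange factors swap variants in and out of nucleosomes. Of 41 chaperone and exchange genes listed, 39 were found and 38 tested. By limma 0 were called and 0 had an unadjusted p below 0.05, beside 19 and 553 of the 11986 genes tested. Groups did not overlap for 5 of the 38, beside 9.79% of all genes tested. The median log2 fold change was 0.015 with 19 genes above and 19 below 0, and -0.004 without NC replicate 3. UBN1, a subunit of the HIRA chaperone of the replication-independent H3 variant, had the highest value of the list, though not per kilobase. Its transcript level was 7336, 7650 and 7643 in NC and 8449, 8888 and 8062 in KD replicates 1 to 3, without overlap and with a log2 fold change of 0.17 (unadjusted p = 0.0537, adjusted p = 0.997 from limma). CABIN1, of the same chaperone complex, had the largest positive log2 fold change, 0.28 (95% confidence interval -0.04 to 0.60), or 0.10 without NC replicate 1 and 0.44 without NC replicate 3. EP400, an ATPase linked to exchange of the H2AFZ product, had the largest negative one, -0.33 (95% confidence interval -0.76 to 0.10), or -0.18 without NC replicate 1 and -0.50 without NC replicate 3.

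Genes for histone mRNA synthesis and processing gave a similar picture, with 19 found and tested and 0 called by limma, beside 0.159% of all genes tested. At an unadjusted p below 0.05 there was 1, beside 553 of the 11986 genes tested. Groups did not overlap for 2, beside 9.79% of all genes tested. The median log2 fold change was 0.047. That median had no steady sign, as it was -0.037 without KD replicate 3, -0.03 at a minimum mean of 100, and between 0 and 0.018 in 4 of the other fits that left out a library. CPSF2, a subunit of the complex that cleaves histone and other pre-mRNAs, was at 511, 587 and 449 in NC and 441, 387 and 444 in KD replicates 1 to 3, with a log2 fold change of -0.28 (unadjusted p = 0.0480, adjusted p = 0.997 from limma), or -0.18 without NC replicate 2. ZNF473 had the largest positive value, 0.41 (95% confidence interval -0.13 to 0.95), and this became 0.15 without KD replicate 3 and 0.63 without KD replicate 1. CASP8AP2, the gene with the highest value, though not per kilobase, had -0.04, or 0.16 without KD replicate 2 and 0.02 without NC replicate 1.

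As companions of CENPA, 18 of 19 listed genes with a CENP symbol were found and tested, a list by name that includes CENPJ. None was called by limma, beside 0.159% of all genes tested. At an unadjusted p below 0.05 there were 2, beside 553 of the 11986 genes tested. Groups did not overlap for 3, beside 9.79% of all genes tested. The log2 fold change was below 0 for 14 and above 0 for 4. Its median was -0.129, beside 0.003 over all genes tested, or -0.047 without NC replicate 1. CENPB, which binds a DNA box in centromeric repeats, had the largest negative log2 fold change. It was at 45.9, 54.2 and 35.7 in NC and 33.1, 28.8 and 19.7 in KD replicates 1 to 3, so the groups did not overlap, and its log2 fold change was -0.73 (unadjusted p = 0.0363, adjusted p = 0.997 from limma). CENPU, an inner kinetochore gene chosen after its values were seen, was at 555, 587 and 573 in NC and 448, 501 and 456 in KD replicates 1 to 3, again without overlap, with a log2 fold change of -0.29 (unadjusted p = 0.0210, adjusted p = 0.997 from limma). CENPF had the largest positive value, 0.16 (95% confidence interval -0.08 to 0.39), or 0.08 without NC replicate 3 and 0.10 without KD replicate 3. CENPO, with the highest level, had -0.07, or -0.03 without NC replicate 1, -0.04 without KD replicate 3 and -0.11 without KD replicate 1.

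Transcripts selected by poly(A) tail depend on the end of the mRNA, so the last bases of the longest RefSeq mRNA were searched on the mRNA strand for the polyadenylation signal AATAAA or ATTAAA (last 50 bases) and for the cytoplasmic polyadenylation elements TTTTAT or TTTTAAT (last 100 bases), through which stored oocyte mRNAs can gain longer tails. Of the 5 listed genes with a RefSeq mRNA, 2 had a signal and 1 an element. The sites are shown with the motif in capitals, on the strand of the mRNA in Sscrofa11.1.
H2AFZ signal, chr8:120566006-120566023: gtggataagctcAATAAA
H2AFZ element, chr8:120565927-120565956: aaactgtttggaTTTTAATtgtgatgcaga
CENPA signal, chr3:112263921-112263950: tgtagacatttgAATAAAgcttctctgtct
Of the 10221 tested genes with a RefSeq mRNA, 73.3% had either signal and 19.5% had either element in the same windows, and taken singly AATAAA was in 59.7% and TTTTAAT in 5.68%. For H2AFZ the annotated mRNA ends with the signal itself, so its last bases may be missing from the annotation. None of the letters searched was in these windows for H1FOO, H2AFY and H3F3A, which says nothing more than that.

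The identity of the samples was checked with marker genes. Of 14 oocyte and early embryo markers 11 were found, namely GDF9, BMP15, ZP2, ZP3, ZP4, MOS, OOEP, ZAR1, KPNA7, TDRD1 and PADI6, led by KPNA7 with 38666 ± 2212 in NC and 40964 ± 6694 in KD (SD, n = 3). Their summed level was 83188, 81019 and 75629 in NC and 91967, 88182 and 74163 in KD replicates 1 to 3. Of 15 cumulus and granulosa markers 13 were found, namely VIM, COL1A2, STAR, INHBA, CYP11A1, FOXL2, CYP19A1, INHA, PTX3, AMH, AMHR2, LUM and TNFAIP6, with a summed level of 170, 264 and 170 in NC and 169, 162 and 229 in KD replicates 1 to 3. VIM was the most abundant of these, at 83.6 to 168, and 9 of the 13 were too low to be tested. The sum hides differences between single genes. KD replicate 3 was the highest library for STAR (23.4), CYP11A1 (14.2), FOXL2 (13.1), CYP19A1 (10.7) and AMHR2 (3.3). FOXL2 was at 1.05 to 2.9 in the other libraries and CYP11A1 at 0.974 to 5.22. NC replicate 2 was the highest for VIM, COL1A2, INHA, AMH and LUM, NC replicate 1 for INHBA and PTX3, and NC replicate 3 for TNFAIP6. Of the markers, 11 of the oocyte list and 4 of the cumulus and granulosa list were tested. None of these was called by limma or had an unadjusted p below 0.05, beside 19 and 553 of the 11986 genes tested. The median log2 fold change was 0.038 for the oocyte and -0.068 for the cumulus and granulosa list. Neither kept its sign when single libraries were left out. The first ran from -0.067 without KD replicate 1 to 0.122 without KD replicate 3. The second ran from -0.247 without NC replicate 1 to 0.196 without NC replicate 2. With all libraries, the second was -0.307 at a minimum mean of 100 and -0.119 without the filter on low values.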

How the data were processed

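The authors assigned reads to Sscrofa11.1 transcripts with Salmon 0.14.1, and DESeq2 is named in the submitters' processing notes. The deposited table holds normalized signal per Ensembl gene. Low values were whole multiples of a step (within 0.1) in 66.8% to 74.1% of cases, so reads could not be recovered as whole numbers and count models were not used. Its values summed to 11084950 to 11500709 per library, which the normalization sets. The step gave the estimated reads, and counting error covers reads only. GFP and RFP mRNA added before extraction were not analysed here.

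Groups and replicate numbers came from the sample titles. The study calls its RNA-seq replicates independent, but neither it nor the labels say that they came from separate batches of oocytes, so p-values measure the spread between these samples. Tests used log2(value + 1) of genes averaging 10 or more, with limma 3.58.1 in R 4.3.3 (lmFit, eBayes with trend) and Benjamini-Hochberg adjustment over 11986 genes, which understates changes of low genes. The fit was tested on simulated data. Ratios within libraries were compared by exact two-sided permutation with scipy 1.17.1. Scripts ran in Python 3.11.15 (pysam 0.24.0, pandas 2.3.3, numpy 2.4.6, matplotlib 3.10.9).

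The listed genes and companion lists were chosen with earlier results of these data known. Named genes were the listed genes, SIN3A, CCNB1, HDAC1 and HDAC2, of each list the called genes, the largest positive and negative change and the highest value not divided by length, the steadiest and least steady reference gene, the 3 genes most like H2AFZ and H1FOO, and the markers found. Of 3575 unnamed rows 837 had a symbol in the gene name table, which was used to find genes of the lists. RefSeq's Sscrofa11.1 annotation gave positions and mRNA lengths.

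The fit was repeated with each library left out, with the replicate block, with robust empirical Bayes, without the variance trend, after quantile normalization or TMM-like rescaling, with the minimum mean raised to 100 or dropped, and with a pseudocount of 0.1 or 10.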

Additional observations from a re-analysis of the deposited data

How the results depend on the processing

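None of the 7 listed genes and no gene of the companion lists was called in any of the 15 alternatives, and the lowest adjusted p of a listed gene, H2AFV included, was 0.858. Of 118 refitted log2 fold changes of these genes 110 kept their sign, and the 8 that did not came from leaving out 1 library, which leaves fewer samples. Leaving out each library in turn gave -0.15 to 0.13 for H1F0, -0.19 to 0.21 for H1FX, -0.20 to 0.12 for H2AFZ, -0.19 to 0.03 for H2AFV, -0.02 to 0.12 for H2AFY and -0.16 to 0.02 for CENPA, with -0.21 to -0.01 for H1FOO and -0.20 to -0.03 for H3F3A. Of the companion genes, the range was -0.17 to 0.16 for CASP8AP2, -0.11 to 0.04 for TOP2B and -0.33 to 0.01 for HIST1H2BA. In the same way the log2 ratio to H2AFZ ran from -0.01 to 0.369 for HDAC1, from -0.329 to -0.022 for HDAC2, from -2.517 to -2.01 for CCNB1 and from -4.144 to -3.24 for SIN3A, and the ratio of H2AFZ to H2AFV from -0.115 to 0.178. A mean of at least 100 left H1F0 and H1FX untested. Of 105 list medians 8 moved by more than the spread between libraries. The number of genes called over the whole table was 19 (7 higher and 12 lower in KD) and became 0 without the variance trend (0 higher and 0 lower), and quantile normalization called 4 higher and 10 lower; the cause was not tested. Without 1 library it ran from 11 to 19, with 3 to 8 higher and 8 to 14 lower, being 12 without NC replicate 2 or NC replicate 3 and 11 without KD replicate 1 or KD replicate 2. SIN3A kept a log2 fold change of -3.81 without the variance trend (adjusted p = 0.423) and with the robust option (adjusted p = 0.469), where its call was lost, and CCNB1 lost its call in the same 2 settings; the cause was not tested. NC and KD libraries share only replicate numbers. With the replicate block 26 genes were called and none of the listed genes. Every library correlated best with its own number after subtraction of the group means (0.109, 0.111 and 0.087, against -0.083 to -0.021 for other pairs), a hint from the data and not from the design. Subtracting the group means ties these correlations to each other, so positive values for some pairs push other pairs below 0. The hint is therefore weak. The ratio of H3F3A to H3F3B was not run. Low depth limits H1F0 most, whose interval reaches 0.54-fold to 1.73-fold.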

Other observations

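The genes most like H2AFZ and H1FOO over the 6 libraries were taken by Pearson's r of the log2 levels, as a description over 6 points of libraries that share their depth and handling. For H2AFZ these were PTPN12 (r = 0.992), GTF2I (r = 0.985) and CALML4 (r = 0.983), and 128 of 11985 genes had an r above 0.9. PTPN12 was at 279, 186 and 200 in NC and 231, 195 and 205 in KD replicates 1 to 3, so NC replicate 1 was its highest library, as for H2AFZ. For H1FOO they were the unnamed ENSSSCG00000036531 (r = 0.989) and ENSSSCG00000014569 (r = 0.988) and UQCC1 (r = 0.986), and 70 genes had an r above 0.9. ENSSSCG00000036531 was at 90.3, 109 and 83.1 in NC and 103, 82.9 and 77.0 in KD replicates 1 to 3, with NC replicate 2 and KD replicate 1 at the top as for H1FOO. Genes picked for the highest r share their high libraries through that choice, so this adds no support for a relation. How many unrelated genes would pass an r of 0.9 over 6 libraries was not computed.

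H1FOO varied more between libraries than most of the few genes at its level. Its log2 level had an SD of 0.169 over the 6 libraries, larger than that of 81.2% of the 16 tested genes within 0.25 log2 units of its mean, whose median SD was 0.107. H1F0 lay at the other extreme, as its SD of 0.198 was larger than that of only 1.87% of 695 genes at its level, where the median was 0.509. At an estimated 15 to 25 reads per library, counting alone gives an error of 25.6% at the lowest. So the small SD of H1F0 does not show a steady transcript. H2AFY, with an SD of 0.107, was larger than 13.7% of 757 genes at its level.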
